A study of Mus musculus with 6 samples.

Results

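The Hox cluster genes are the 39 genes named Hoxa, Hoxb, Hoxc or Hoxd with a paralog number, taken by name from 49492 gene rows, with antisense and opposite-strand transcripts left out. They comprised 11 Hoxa, 10 Hoxb, 9 Hoxc and 9 Hoxd genes. Of the 39, 33 had at least 1 transcript in single cells, and in bulk RNA 32 had reads in whole glomeruli and 31 in dissociated cells. Hox genes encode homeodomain transcription factors that lie in 4 clusters and are numbered by paralog group, so that genes of the same number on different clusters descend from one ancestor. They set position along the body axis during development and stay on in many adult tissues. In the kidney the paralogs of group 11 are known for their part in the early metanephros, and their products bind DNA together with TALE homeodomain proteins of the Pbx and Meis families.

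The data came from glomeruli, the filtering units of the kidney, of male CD1 IGS outbred mice aged 8 weeks. Drop-seq, which captures single cells in droplets and counts each transcript once by a molecular identifier (UMI), was run on 4 libraries of glomerular cells that were dissociated and fixed in 80% methanol in PBS. Poly(A) RNA was also sequenced in bulk from 1 library of whole live glomeruli without fixation (500 ng of RNA) and from 1 library of sorted cells of dissociated glomeruli fixed in the same methanol solution (95 ng of RNA). No treatment or genotype was compared, and nothing in the labels ties the 4 Drop-seq libraries to different mice. The p-values therefore measure only how these libraries varied, which may be technical.

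Each Drop-seq library contained 3528543 to 6411775 UMIs, and 13993 of 15465 barcodes were kept after filtering. Cells were clustered without the Hox genes and the related lists used here, and clusters were called by fixed markers: 10429 podocyte-like, 1860 endothelial-like, 958 tubular-like, 373 parietal-like, 321 mural-like and 52 immune-like cells. The mural-like cluster was led by Ren1, Acta2 and Rgs5, and all 7 mesangial markers had at least 3 UMIs in it. The parietal-like cluster had at least 3 UMIs of 6 of 6 parietal markers, whose sum (709 CPM) was no higher than in mural-like cells (753 CPM, 3 of 6 markers) and above podocyte-like cells (99.4 CPM), and it also held summed podocyte markers at 64.2% of the podocyte-like level, against 9.31% (tubular-like), 13.6% (mural-like) and 20.4% (endothelial-like). Levels are given as CPM (counts-per-million), the UMIs of a gene scaled to the total of the summed cells of a type in libraries 1, 2, 3 and 4 in that order. Gene positions are those of the GENCODE vM21 annotation on GRCm38, and the build behind the deposited counts is not given in the sources used here.

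The promoters of 4 members are shown first because they stand for the main patterns. Hoxd8 and Hoxb8 were highest in tubular-like cells. Hoxc4 and Hoxa9 were higher in podocyte-like cells than in the average of the other types, though each overlapped with at least 1 other type. Each line gives the 250 bases before the RefSeq transcript start (GRCm38.p6), 5′ to 3′ on the gene's strand, with CG dinucleotides in capitals.
Hoxd8, chr2:74704365-74704614, plus strand: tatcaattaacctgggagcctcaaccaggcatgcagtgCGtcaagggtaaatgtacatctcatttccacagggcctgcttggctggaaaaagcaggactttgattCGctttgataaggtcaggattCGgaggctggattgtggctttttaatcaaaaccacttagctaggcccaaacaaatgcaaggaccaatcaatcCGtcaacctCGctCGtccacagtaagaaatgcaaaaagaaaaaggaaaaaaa
Hoxb8, chr11:96281655-96281904, plus strand: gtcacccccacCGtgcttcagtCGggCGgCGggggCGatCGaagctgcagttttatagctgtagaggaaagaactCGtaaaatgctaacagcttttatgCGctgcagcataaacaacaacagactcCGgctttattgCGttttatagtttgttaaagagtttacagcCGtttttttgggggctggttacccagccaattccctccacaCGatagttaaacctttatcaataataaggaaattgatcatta
Hoxc4, chr15:103034145-103034394, plus strand: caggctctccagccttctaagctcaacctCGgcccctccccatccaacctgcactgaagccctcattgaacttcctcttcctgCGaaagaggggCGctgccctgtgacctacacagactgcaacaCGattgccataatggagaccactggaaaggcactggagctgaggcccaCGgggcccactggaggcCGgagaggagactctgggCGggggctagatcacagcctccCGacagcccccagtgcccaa
Hoxa9, chr6:52227371-52227620, minus strand: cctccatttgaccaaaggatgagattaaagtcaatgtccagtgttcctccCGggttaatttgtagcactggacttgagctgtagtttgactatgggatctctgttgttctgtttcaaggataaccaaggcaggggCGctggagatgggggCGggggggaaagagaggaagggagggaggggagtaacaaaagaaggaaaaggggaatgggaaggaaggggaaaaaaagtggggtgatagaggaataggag
The promoter table held 24 promoters of 22 of the 39 members. CG dinucleotides numbered 4 to 45 in the 300 bases around the start in these 24, with a median of 14.5 against 7 in all 32851 promoters. The motif TGATNNAT, a form bound by Pbx and Hox partners, was searched on both strands and occurred in 4 of the 24 (16.7%) and in 8.85% of all promoters. One of the 4 is the Hoxb8 promoter printed above, and a match in these letters is a description only.

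Hox transcripts made up a similar share of RNA in the epithelial types and a smaller one in endothelial-like cells, but which cluster supplied them differed between types. Summed over all members, the level was 1359, 1379, 1496 and 1486 CPM in podocyte-like cells (1429.7 ± 71.0, SD, n = 4), 1454 ± 175 in tubular-like, 1334 ± 136 in parietal-like, 928 ± 269 in mural-like and 542 ± 32.0 in endothelial-like cells. The podocyte-like, tubular-like and parietal-like libraries overlapped, and all 4 endothelial-like libraries except for an overlap with mural-like library 3 lay below every other library. Without library 3 the mural-like level was 1061.7 ± 27.2 CPM (n = 3).
Of the Hox UMIs in podocyte-like cells 64.1% came from the Hoxc cluster and 1.20% from Hoxb. In tubular-like cells 48.3% came from Hoxd and 30.2% from Hoxb, with 8.14% from Hoxc. The Hox UMIs found in endothelial-like cells came from Hoxa (33.3%), Hoxb (30.7%) and Hoxc (29.3%) about equally, with 6.78% from Hoxd. Podocyte markers stood in these cells at 20.4% of their podocyte-like level. The part of podocyte transcripts in the Hoxc share was not tested.

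**Figure D1:**
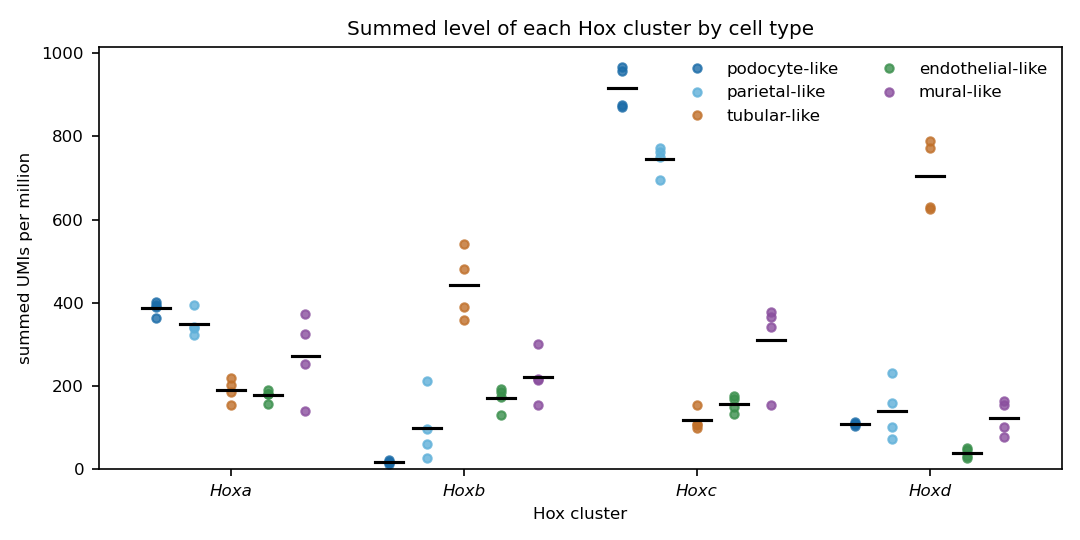
Summed level of the Hoxa, Hoxb, Hoxc and Hoxd genes in CPM (linear axis) in each cell type; points are the 4 Drop-seq libraries and bars their mean. Hoxc was highest in podocyte-like and parietal-like cells (917 and 745 on average), whereas Hoxb and Hoxd were highest in tubular-like cells (443 and 704).

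The Hoxc cluster summed to 875, 870.0, 957 and 967 CPM in podocyte-like cells and to 155, 109, 99.1 and 105 in tubular-like cells. The Hoxd cluster ran the other way, with 625, 630.2, 790.1 and 771 CPM in tubular-like and 108, 103, 113 and 108 in podocyte-like cells. The Hoxb cluster reached 359.7, 389, 481 and 542 CPM in tubular-like cells but no more than 22.5 in any podocyte-like library. None of these 3 pairs of groups overlapped.

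The share of single cells with at least 1 Hox UMI was lowest in endothelial-like cells too. With every cell thinned to 500 UMIs it was 49.4% ± 1.64 (SD, n = 4) in podocyte-like, 48.9% ± 4.11 in tubular-like, 44.2% ± 6.11 in parietal-like, 33.2% ± 8.88 in mural-like and 20.5% ± 1.47 in endothelial-like cells. Unthinned shares were 72.4%, 82.1%, 68.7%, 48.8% and 27.8% in the same order, at median depths of 1017, 1751, 1002, 777 and 641 UMIs. Thinning left out 657, 24, 24, 45 and 378 shallower cells. No type among these lacks Hox transcripts, so that no background share from a Hox-negative type can be set beside them.

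Across cell types 26 of the 33 detected members had at least 20 UMIs in all and were tested, comparing a type with the average over the remaining ones, with edgeR's quasi-likelihood test and Benjamini-Hochberg adjustment over 15455 genes. The other 7 detected members, among them Hoxa11, Hoxc11, Hoxd3, Hoxd11, Hoxc13 and Hoxd13, each had fewer than 20 UMIs, and Hoxa13, Hoxb1, Hoxb13, Hoxc12, Hoxd1 and Hoxd12 had none. A gene could pass the filter through the type where it was high, so the counts below describe the tested members only.

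**Figure D2:**
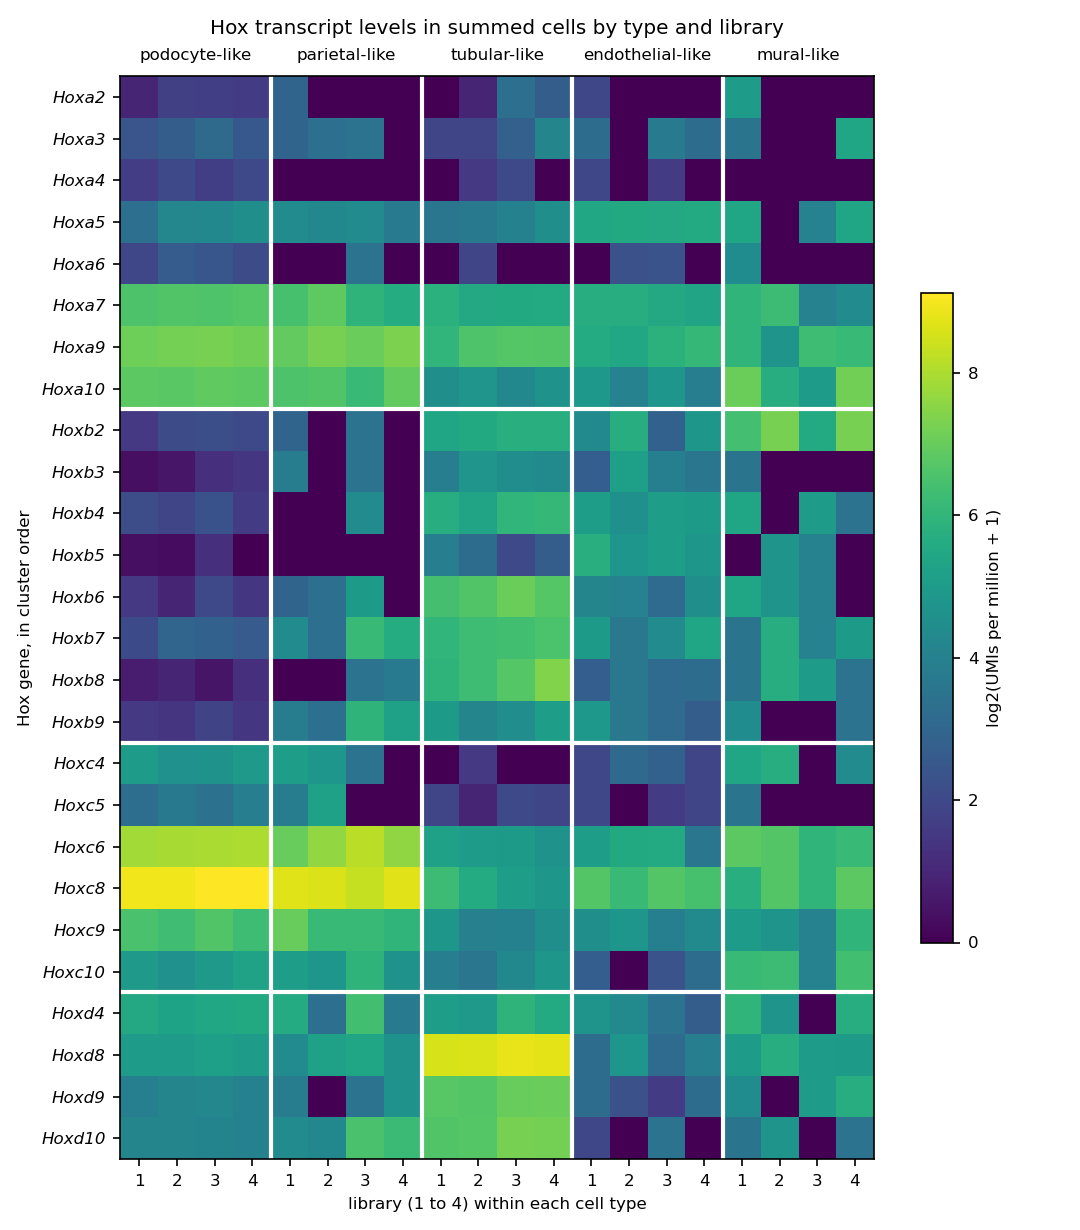
Level of the 26 tested Hox genes as log2(CPM + 1), in cluster order down the rows; columns are Drop-seq libraries 1 to 4 within each cell type. The brightest blocks are Hoxc8 and Hoxc6 in podocyte-like and parietal-like cells and Hoxd8 in tubular-like cells, and the Hoxb rows are dark in podocyte-like cells.

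In podocytes, the cells whose foot processes form the slit diaphragm, all 6 tested Hoxc genes and Hoxa7, Hoxa9 and Hoxa10 were higher and 7 of 8 tested Hoxb genes lower. Of the 26 tested members 10 were called higher and 7 lower in podocyte-like cells, where 24.8% of all tested genes were called higher and 8.28% lower. Beside the 6 Hoxc genes and these 3 of 8 Hoxa genes, Hoxd4 rose. Of the 6, Hoxc5 passed the filter only through podocyte-like cells. Of the 8 Hoxb genes 7 fell, from Hoxb2 to Hoxb9 without Hoxb5, which had 5 UMIs in podocyte-like cells. The median log2 fold of the members was -0.23 (-0.25 with Hoxa4 and Hoxb5 set at the level of 3 UMIs where a type had none), against 0.31 over all tested genes.

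Hoxc8 (ENSMUSG00000001657.7; chromosome 15, 102990607 to 102994111) gave the most UMIs in podocyte-like cells, at 487, 489.8, 544 and 557 CPM. It stood at 413, 403, 321 and 415 in parietal-like, 74.7, 47.8, 33.0 and 27.7 in tubular-like, 51.7, 101, 61.8 and 112 in mural-like and 101, 69.1, 102 and 88.4 in endothelial-like cells. Every podocyte-like library was above every library of every other type, with a log2 fold of 2.46 (SE 0.11, adjusted p = 8.20e-115, edgeR). Hoxc6 (ENSMUSG00000001661.5; chromosome 15, 102998257 to 103011881), a paralog group 6 gene, was at 229.6, 242, 249.5 and 253 CPM in podocyte-like and at 36.0, 32.2, 30.04 and 24.9 in tubular-like cells (log2 fold in podocyte-like 2.08, SE 0.12, adjusted p = 2.95e-62). It overlapped only with parietal-like cells, where it ranged from 129 to 291.

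Hoxc9 (ENSMUSG00000036139.6; chromosome 15, 102976439 to 102985099) was at 89.7, 79.4, 100.1 and 77.1 CPM in podocyte-like cells against 14.7 to 27.7 in tubular-like cells (log2 fold 1.58, SE 0.17, adjusted p = 1.32e-19). Hoxc4 (ENSMUSG00000075394.4; chromosome 15, 103018934 to 103036852), whose promoter is printed above, was at 31.1, 23.3, 24.2 and 28.5 CPM, and in tubular-like cells it had 2 UMIs, both in library 2 (log2 fold in podocyte-like 2.07, SE 0.31, adjusted p = 1.77e-10). Hoxc10 (ENSMUSG00000022484.7; chromosome 15, 102966796 to 102971893) was at 28.7, 23.5, 29.1 and 37.0 CPM. Its log2 fold of 0.71 (SE 0.23) was the smallest of the 6 Hoxc genes (adjusted p = 0.00907), and 3 of 4 mural-like libraries stood above all podocyte-like ones. Hoxc5 also rose, by 1.72 (SE 0.44) on the log2 scale.

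Hoxa9 (ENSMUSG00000038227.15; chromosome 6, 52223100 to 52231089) was at 136, 147, 149.9 and 141 CPM in podocyte-like and at 63.6, 95.7, 105 and 102 in tubular-like cells, a log2 fold in podocyte-like cells of 1.01 (SE 0.13, adjusted p = 5.64e-13). Parietal-like cells were at a like level of Hoxa9, at 122, 152, 131 and 158 CPM. Hoxa10 (ENSMUSG00000000938.11; chromosome 6, 52231197 to 52240854) was at 112, 108, 118 and 112 CPM against 18.0 to 25.8 in tubular-like and 13.8 to 28.0 in endothelial-like cells (log2 fold 1.43, SE 0.14, adjusted p = 1.04e-21). The mural-like libraries spread from 30.9 to 142 and overlapped with the podocyte-like ones. Hoxa7 (ENSMUSG00000038236.8; chromosome 6, 52214491 to 52221854) was at 94.1, 98.8, 97.4 and 104 CPM and at 55.3, 44.2, 45.1 and 47.0 in tubular-like cells (log2 fold in podocyte-like 1.13, SE 0.15, adjusted p = 4.92e-12). Hoxa2, Hoxa3, Hoxa4, Hoxa5 and Hoxa6 passed the threshold in neither direction in podocyte-like cells.

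**Figure D3:**
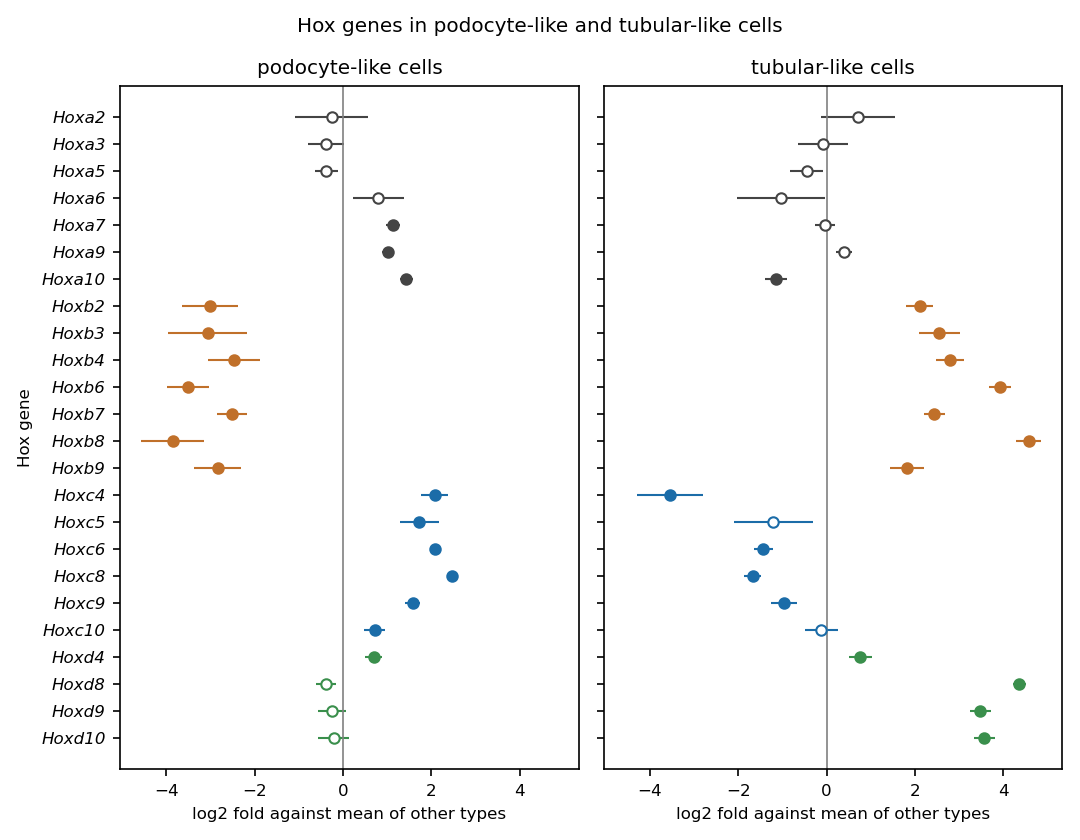
Log2 fold of 24 tested Hox genes in podocyte-like (left) and tubular-like cells (right) against the mean of the other types, with standard errors; filled points passed the adjusted threshold of 0.05, and colours mark the clusters (Hoxa grey, Hoxb orange, Hoxc blue, Hoxd green). Hoxa4 and Hoxb5 are left out because at least 1 type had no UMI of them; Hoxb points lie left of 0 in podocyte-like and right of 0 in tubular-like cells.

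In tubular-like cells, most of which carried distal convoluted tubule markers, Hoxd8, Hoxd9 and Hoxd10 and all tested Hoxb genes were higher. Of 26 members 12 were called higher and 5 lower, where 23.7% of all tested genes were called higher and 12.1% lower. All 8 tested Hoxb genes and all 4 tested Hoxd genes rose. Of these, Hoxb5 had 17 UMIs in tubular-like cells, at a mean of 7.66 CPM against 35.0 in endothelial-like cells. Its log2 fold of 2.27 rests on a type with no UMI of it, and was 0.66 with that type at the level of 3 UMIs. The 5 that fell were Hoxc4, Hoxc6, Hoxc8, Hoxc9 and Hoxa10. The median log2 fold was 0.74 against 0.23 over all tested genes, and 0.53 when Hoxa4 and Hoxb5 were set at that bound.

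Hoxd8 (ENSMUSG00000027102.4; chromosome 2, 74704615 to 74707933) had the lowest adjusted p in tubular-like cells and stood there at 376, 388, 454 and 429 CPM. In the other types it stayed at 31.1 to 34.8 in podocyte-like, 30.5 to 50.3 in mural-like, 20.3 to 40.2 in parietal-like and 8.13 to 26.9 in endothelial-like cells. The groups did not overlap, with a log2 fold of 4.36 (SE 0.15, adjusted p = 5.63e-176). Its neighbours followed: Hoxd9 (ENSMUSG00000043342.9; chromosome 2, 74697727 to 74700208) was at 108, 102, 126 and 130.0 CPM against 14.3 to 17.6 in podocyte-like cells (log2 fold 3.48, SE 0.24, adjusted p = 2.78e-47). Hoxd10 (ENSMUSG00000050368.4; chromosome 2, 74691924 to 74695105) was at 99.6, 104, 150.2 and 149 CPM against 15.0 to 16.8 in podocyte-like cells (log2 fold 3.57, SE 0.24, adjusted p = 6.24e-50). Both were above every library of every other type.

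Among Hoxb genes, Hoxb8 (ENSMUSG00000056648.5; chromosome 11, 96281905 to 96285315) was at 60.9, 76.4, 105 and 169 CPM in tubular-like and at 0.623, 0.921, 0.441 and 1.36 in podocyte-like cells, with a tubular-like log2 fold of 4.58 (SE 0.28, adjusted p = 9.79e-58). Hoxb6 (ENSMUSG00000000690.5; chromosome 11, 96292476 to 96301569) was at 85.8, 100.3, 135 and 105 CPM against 1.87, 0.921, 3.09 and 1.70 in podocyte-like cells (log2 fold in tubular-like 3.93, SE 0.25, adjusted p = 3.05e-54). No library of another type reached the tubular-like range of either gene. Hoxb7 (ENSMUSG00000038721.8; chromosome 11, 96286623 to 96290162) was at 63.6, 77.3, 81.1 and 91.2 CPM, overlapping with 1 parietal-like library at 70.3 (log2 fold 2.44, SE 0.24, adjusted p = 5.90e-23), and its podocyte-like libraries, at 3.11 to 6.91, lay below all others. Hoxb9 (ENSMUSG00000020875.9; chromosome 11, 96271457 to 96276595) was at 30.4, 16.6, 21.0 and 33.2 CPM in tubular-like and at 1.87, 1.61, 2.64 and 1.70 in podocyte-like cells (log2 fold in podocyte-like -2.84, SE 0.53, adjusted p = 7.86e-07).

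Hoxb3 and Hoxb4 were also called higher in endothelial-like cells, and Hoxb2 in mural-like cells. Hoxb4 (ENSMUSG00000038692.8; chromosome 11, 96318267 to 96321638) was at 49.8, 39.6, 63.1 and 66.4 CPM in tubular-like and 33.6, 23.0, 32.5 and 30.4 in endothelial-like cells, against 3.43, 2.76, 3.97 and 2.04 in podocyte-like cells. It rose in both types, by a log2 fold of 2.79 (SE 0.31) in tubular-like (adjusted p = 8.25e-18) and 1.40 (SE 0.39) in endothelial-like cells (adjusted p = 0.00163, and 0.0935 without cells with markers of 2 types). Hoxb3 (ENSMUSG00000048763.11; chromosome 11, 96323326 to 96347930) was at 13.8, 25.8, 21.0 and 19.4 CPM in tubular-like and 5.59, 34.6, 14.2 and 11.1 in endothelial-like cells, where library 2 was the highest. Its log2 fold was 2.55 (SE 0.46) in tubular-like cells (adjusted p = 2.66e-07) and 1.72 (SE 0.54) in endothelial-like cells (adjusted p = 0.00687). This call was lost without library 2 (0.296), with at least 500 genes per cell (0.132) and without cells with markers of 2 types (0.184). Hoxb2 (ENSMUSG00000075588.6; chromosome 11, 96350525 to 96354012) was at 41.5, 45.1, 51.1 and 52.5 CPM in tubular-like cells (log2 fold 2.11, SE 0.31, adjusted p = 7.43e-11, and 0.154 under a mitochondrial limit of 10%). Exons of Hoxb3 and Hoxb2 lie opposite Hoxb3os over 52.9% and 27.3% of their bases, and the strand setting of the counting is not given in the sources used here, so reads of these pairs may be mixed.

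Tubular-like cells were set apart by depth and mitochondrial share as well. Their median mitochondrial share was 14.1% against 4.26% in podocyte-like cells, at median depths of 1751 and 1017 UMIs. With a limit of 10% in place of 20%, 9 members were called higher in tubular-like cells, all of them among the 12, and none was called lower (edgeR, with none at an unadjusted p under 0.05 either). The share of all genes called under that limit is not given. Hoxd8 then had a log2 fold of 3.603 and Hoxc8 of -0.34 (adjusted p = 0.511). The part of the mitochondrial share in the lower calls was not tested. A subcluster of 157 of the 958 tubular-like cells was led by podocyte markers. Its median mitochondrial share was 9.93%, against 15.5% in the subcluster led by distal convoluted tubule markers. In the one led by connecting tubule and principal markers it was 11.7%. A limit of 10% therefore lies above the median of the podocyte-led subcluster and below those of the other 2. The number of cells left in each is not given, and the part of this change in the calls was not tested. Without the podocyte-led subcluster Hoxc8 fell by 3.79 and Hoxc6 by 2.85 on the log2 scale in tubular-like cells, against 1.67 and 1.43 with it.

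Within the tubular-like cells, subclusters with markers of the distal convoluted tubule (580 cells) and of the connecting tubule and principal cells (150 cells) had similar sums of Hoxd and of Hoxb genes. Distal convoluted tubule cells arise from the nephron and principal cells from the ureteric bud. The second subcluster took connecting tubule and principal cells together, so the comparison does not separate these origins. Hoxd genes summed to 721 CPM (95% interval 676 to 769, counting error only) in the distal convoluted subcluster. In the connecting and principal one they summed to 812 (717 to 917). Hoxb genes summed to 485 (448 to 524) and 509.7 (435 to 594) in the same order. Each subcluster was then set against the mean of the others tested, which for both included the one led by podocyte markers. Of 19 members tested among 8837 genes, Hoxb8 rose (log2 fold 1.05) and Hoxc8 (-2.24) and Hoxd4 (-1.46) fell in the distal convoluted subcluster, where 5.81% of tested genes were called higher and 2.25% lower. Summed over libraries, Hoxc8 was at 8.31 CPM there, 12.4 in the connecting and principal subcluster and 223 in the podocyte-led one. Hoxb9 rose (2.62) in the connecting and principal subcluster, where 1.89% were called higher and 2.32% lower. Each of these 4 calls was lost in several other fits. Without library 2 the fold of Hoxc8 turned to 0.15 (adjusted p = 0.898), and at a clustering resolution of 0.25 it was not called (0.0939). Hoxb8 was not called without library 1, 2 or 4 (0.0538, 0.385 and 0.0847) or with DESeq2 (0.245), and Hoxd4 not without library 2 or 4 (0.0844 and 0.092). Hoxb9 was not called without library 2, 3 or 4 (0.0526, 0.0892 and 0.0907) or at resolution 0.25 (0.0592). When the 2 were compared directly, 1 member passed the threshold: Hoxd4 was at 79.8, 55.0, 172 and 194 CPM in the connecting and principal cells and at 22.6, 17.1, 32.0 and 25.9 in the distal convoluted cells. The groups did not overlap, with a log2 fold of 1.88 (SE 0.52; edgeR, adjusted p = 0.00989), where 1.75% of the 7940 genes of that fit were called higher and 2.96% lower. Hoxd8 did not pass the threshold, at 399, 445, 327 and 581 CPM against 394, 453, 512 and 455.

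Summed over its cells, the subcluster led by podocyte markers held both Hoxc and Hoxd transcripts. Such sums do not tell cells that hold both from a mix of cells or from doublets. Whether single cells held both was not tested in this subcluster. There Hoxc6 (log2 fold 3.19), Hoxc8 (4.15) and Hoxc9 (2.48) rose and Hoxb6 (-1.82), Hoxb7, Hoxb9, Hoxd9 and Hoxd10 fell against the other subclusters (8 of 19 members, where 6.3% of tested genes were called higher and 3.29% lower). Hoxc6, Hoxc8 and Hoxd10 were called with any 1 library left out. The others lost their call in at least 1 such fit, among them Hoxb6, Hoxb7 and Hoxd9 without library 2 (adjusted p = 0.124, 0.39 and 0.668). Hoxc8 was at 308, 244, 139.7 and 122 CPM and Hoxd8 at 336, 196, 539 and 348. Intercalated cells (50) and thick ascending limb cells (21) were too few for a test, and their Hoxd sums were 385 CPM (268 to 536) and 539 CPM (329 to 832).

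Endothelial-like cells carried less Hox RNA than the other types, apart from the overlap with mural-like library 3. Both clusters of this class, of 1403 and 457 cells, had at least 3 UMIs of all 10 endothelial markers. The smaller was led by S100a4, Fbln5, Cd93 and Fbln2 and had none of the 10 among its top 10 genes. Of 26 members 4 were called higher and 10 lower in endothelial-like cells, where 19.4% of tested genes were called higher and 9.82% lower. The 4 that rose were Hoxa5, Hoxb3, Hoxb4 and Hoxb5, of which 1, Hoxb5, was called without cells with markers of 2 types. The 10 that fell were 4 Hoxc, 4 Hoxd and 2 Hoxa genes of paralog groups 4 to 10, and the median log2 fold was -0.64 against 0.17 over all tested genes (-0.84 with Hoxa4 and Hoxb5 at their bounds).

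Hoxb5 (ENSMUSG00000038700.4; chromosome 11, 96303336 to 96306121) was at 53.1, 26.9, 32.5 and 27.6 CPM in endothelial-like cells. It had 5 UMIs among 12764483 in podocyte-like cells and 0 among 440905 in parietal-like cells, a count that allows up to 6.80 CPM. Summed over libraries it was 90.2-fold higher than in podocyte-like cells (95% counting interval 36.3 to 289), 4.45-fold higher than in tubular-like cells (2.53 to 8.21) and at least 5.19-fold higher than in parietal-like cells. All 4 endothelial-like libraries were above every other library, and the test passed in endothelial-like cells with adjusted p = 8.48e-16. Hoxa5 (ENSMUSG00000038253.6; chromosome 6, 52201754 to 52204587) was at 41.9, 46.1, 44.7 and 47.0 CPM, again above all other libraries, of which the highest were 2 mural-like libraries at 41.3 and 40.7. Its log2 fold was 1.28 (SE 0.30, adjusted p = 1.47e-04). Without the cells that carried markers of 2 types the adjusted p of Hoxa5 was 0.0678.

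The Hoxc genes in endothelial-like cells stood close to the podocyte transcripts found there. Podocyte markers summed to 20.4% of their podocyte-like level (16.4% to 25.9% over libraries), and all 10 had at least 3 UMIs. On the same scale Hoxc8 was at 17.3%, Hoxc6 at 14.1%, Hoxc4 at 18.0%, Hoxc9 at 23.9%, Hoxc5 at 17.2%, Hoxc10 at 15.2% and Hoxa10 at 18.6%. Hoxa9 and Hoxa7 were at 37.1% and 46.6%, and Hoxa5 at 269%. In tubular-like cells, with podocyte markers at 9.31%, the Hoxc genes spread more widely. Hoxc4 was at 1.72%, Hoxc8 at 8.82%, Hoxc6 at 12.6%, Hoxc5 at 21.4%, Hoxc9 at 23.0% and Hoxc10 at 59.6%, and Hoxa9 was at 63.9%. The part of podocyte transcripts in these levels was not tested.

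Mural-like cells, with markers of renin, smooth muscle and mesangial cells, had more Hoxb2 than the average of the other types and more group 11 transcripts than podocyte-like or endothelial-like cells. Of 26 members 2 were called higher and 2 lower, where 6.79% of tested genes were called higher and 5.69% lower, and the median log2 fold was 0.12 against -0.29 over all tested genes (0.25 with Hoxa4 and Hoxb5 at their bounds). Hoxb2 was at 82.7, 151, 46.4 and 153 CPM, against 1.87, 3.22, 3.53 and 3.06 in podocyte-like and 19.6, 49.9, 6.10 and 27.6 in endothelial-like cells. It overlapped with tubular-like and endothelial-like libraries, and its log2 fold was 2.98 (SE 0.43, adjusted p = 1.35e-10). Hoxc10 was at 72.4, 75.5, 15.5 and 81.3 CPM, against 5.59, 0, 4.06 and 8.29 in endothelial-like cells (log2 fold in mural-like 1.52, SE 0.46, adjusted p = 0.0101). Library 3 was the low one, and the call was lost without library 1, 2 or 4 (adjusted p 0.0542 to 0.134). Hoxc8 fell, by 1.40 on the log2 scale, as did Hoxa9 by 0.94 (adjusted p = 0.0422, and 0.0674 to 0.153 with any 1 library left out).

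Group 11 was sparse, and the 3 genes together gave 17 UMIs in mural-like cells, 12 in podocyte-like, 7 in parietal-like, 3 in tubular-like and 0 in endothelial-like cells. In CPM these were 62.0, 126, 15.5 and 50.8 in the 4 mural-like libraries and 0.311, 0.921, 1.32 and 1.36 in the podocyte-like ones. All mural-like libraries were above all podocyte-like, tubular-like and endothelial-like ones and overlapped with the parietal-like range of 0 to 50.2, where library 3 held 5 of the 7 UMIs. The summed level was 60.4-fold higher than in podocyte-like cells (95% counting interval 27.2 to 139) and at least 27.9-fold higher than in endothelial-like cells. Hoxa11, Hoxc11 and Hoxd11 were each below the filter of 20 UMIs. When no filter was applied, all 3 were called higher in mural-like cells, on 6, 5 and 6 UMIs there. These are the same UMIs as in the sums above, so the calls add no separate support. The share of all genes called in that fit is not given. The antisense transcript Hoxa11os, which lies opposite 35.0% of the Hoxa11 exon bases, was at 20.7, 25.2, 15.5 and 20.3 CPM in mural-like cells. At the depth of these libraries that is 1 or 2 UMIs in each. Podocyte-like cells had 4.05, 3.45, 1.76 and 3.40 CPM (log2 fold in mural-like 2.44, SE 0.88, edgeR, adjusted p = 0.0448). The call thus rests on few UMIs, and its outcome in other fits is not given.

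**Figure D4:**
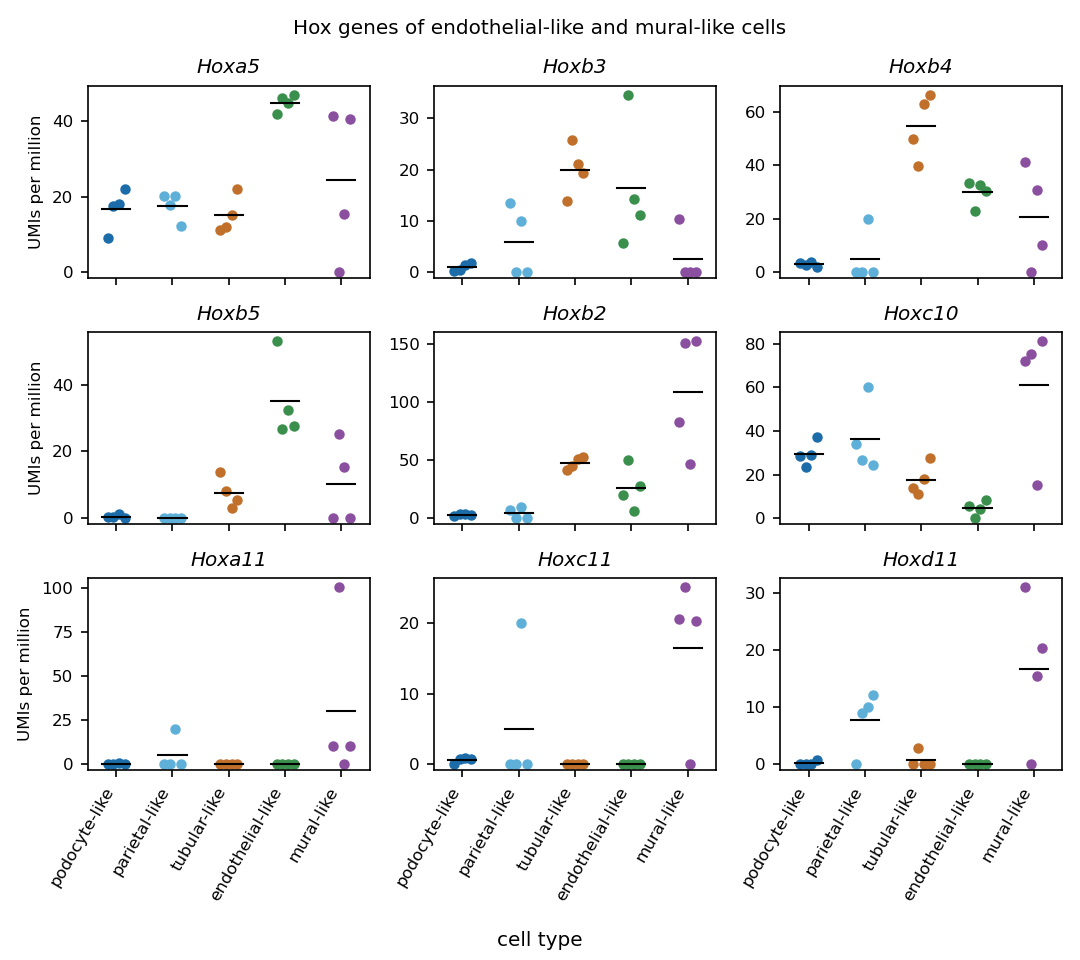
Level in CPM (linear axes, 1 per gene) of 9 Hox genes by cell type; points are libraries 1 to 4 from left to right and bars their mean. Hoxa5 and Hoxb5 were highest in all 4 endothelial-like libraries, Hoxb2 had its highest mean in mural-like cells, and the 3 group 11 genes were at 0 in endothelial-like cells.

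In parietal-like cells, which carried markers of the epithelium of Bowman's capsule, 3 Hoxc genes were higher than in the average of the other types. Of 26 members 3 were called higher (Hoxc6, Hoxc8, Hoxc9) and 1 lower (Hoxb2), where 4.26% of tested genes were called higher and 4.17% lower, and the median log2 fold was -0.04 against -0.21 over all tested genes (0.27 with Hoxa4 and Hoxb5 at their bounds). Hoxc8 had a log2 fold of 1.41 (SE 0.17, adjusted p = 1.20e-14), Hoxc6 of 1.17 (SE 0.22) and Hoxc9 of 1.07 (SE 0.32). Hoxc9 lost its call without library 1 (adjusted p = 0.256), and Hoxb2 lost its without library 1, 2 or 4 (0.0749 to 0.271). These folds weigh the 4 other types equally. Against all other named cells summed, which were mostly podocyte-like, they were -0.30, -0.20 and 0.07, and none of the 3 passed the threshold. Hoxc8 stood at 74.7% of its podocyte-like level, Hoxc6 at 83.4% and Hoxc9 at 95.7%, beside podocyte markers at 64.2%. Hoxb7, Hoxb9 and Hoxd10 were uneven between parietal-like libraries, at 20.3, 8.96, 70.3 and 48.8, 13.5, 8.96, 60.2 and 36.6 and 20.3, 17.9, 90.4 and 73.2 CPM, with libraries 3 and 4 above libraries 1 and 2 in each.

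The partners and regulators of Hox proteins were also unevenly spread. Of 11 genes of the TALE family 10 were tested, and 3 rose in endothelial-like, 5 in mural-like, 3 in podocyte-like and 1 in tubular-like cells, while 4 fell in podocyte-like, 5 in tubular-like and 1 in parietal-like cells. Meis2 was at 565, 522, 665 and 655 CPM in endothelial-like and 2.77, 2.76, 6.01 and 5.53 in tubular-like cells (log2 fold in endothelial-like 4.30, SE 0.14, adjusted p = 1.93e-202). Pbx2 and Pbx3 rose in podocyte-like cells, by a log2 fold of 1.71 (SE 0.20) and 1.69 (SE 0.26), and Tgif1 in tubular-like cells, by 2.04 (SE 0.22). The median log2 fold of the 10 was 0.42 in endothelial-like, 0.85 in mural-like, -0.45 in podocyte-like and -1.62 in tubular-like cells, against 0.17, -0.29, 0.31 and 0.23 over all tested genes. Of all tested genes 19.4%, 6.79%, 24.8% and 23.7% were called higher in these 4 types, and 8.28% lower in podocyte-like and 12.1% in tubular-like cells.

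Of 17 Polycomb and Trithorax genes, whose products keep Hox loci silent or active, 16 were tested. In podocyte-like cells 7 rose and 2 fell, in endothelial-like cells 4 rose and in tubular-like cells 1 rose and 4 fell, and no call was made in mural-like or parietal-like cells. Of all tested genes 24.8%, 19.4% and 23.7% were called higher and 8.28%, 9.82% and 12.1% lower in the first 3 types. The median log2 fold was 0.42 in podocyte-like, 0.27 in endothelial-like and -0.21 in tubular-like cells, against 0.31, 0.17 and 0.23 over all tested genes. Cbx8 rose in podocyte-like cells by a log2 fold of 1.79 (SE 0.24), Bmi1 by 0.86 (SE 0.16) and the demethylase gene Kdm6a by 0.92 (SE 0.18), while the methyltransferase gene Ezh2 fell there (-2.20, SE 0.34) and rose in endothelial-like cells (1.83, SE 0.30). Kdm6b fell in tubular-like cells (-1.60, SE 0.16) and rose in endothelial-like cells (0.92, SE 0.13). Of 15 retinoic acid pathway genes, which include regulators of Hox genes in embryos, 10 were tested and 3 rose in endothelial-like cells: the degrading enzyme gene Cyp26b1 at 30.8, 57.6, 54.9 and 44.2 CPM against 3 UMIs in all podocyte-like cells, and the receptor genes Rara (2.15, SE 0.25) and Rarg (2.55, SE 0.30). Rarb rose in podocyte-like cells (1.59, SE 0.27), and Dhrs3 in tubular-like cells (1.14, SE 0.22). Podocyte-like cells had 3 genes of this list higher and 3 lower, tubular-like 1 and 1, parietal-like 2 and 0 and mural-like 1 and 0, where 24.8% and 8.28%, 23.7% and 12.1%, 4.26% and 4.17% and 6.79% and 5.69% of all genes were called. In endothelial-like cells the 3 of 10 stood beside 19.4%, and the median log2 fold of the list was 0.09 there against 0.17 over all genes, and -0.64 in podocyte-like cells against 0.31.

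Of 10 kidney genes tied to group 11 in development 4 were tested. Six4 was at 24.9, 15.6, 33.0 and 13.8 CPM in tubular-like cells, with 0 UMIs in endothelial-like and mural-like cells and 4 in the rest, and Pax2 at 8.30, 8.28, 9.01 and 11.1 CPM against 3 UMIs in all podocyte-like cells. Sall1 was at 5.53, 11.96, 6.01 and 13.8 CPM in tubular-like and 7.48, 7.83, 11.9 and 13.9 in podocyte-like cells, and endothelial-like cells had 0 UMIs of it. All 3 were called higher in tubular-like cells, where 23.7% of all genes were (Six4 and Pax2 passed the filter mainly through these cells, with 42 and 19 UMIs there and 4 and 5 elsewhere), Sall1 also in podocyte-like cells, and Six2 had no UMI in any type. Among noncoding neighbours in the clusters, Hoxb5os was at 404, 385, 285 and 373 CPM in tubular-like cells and at 1.25, 3.45, 0.441 and 2.38 in podocyte-like cells (log2 fold in tubular-like 7.26, SE 0.22, adjusted p = 6.82e-247). In endothelial-like cells, where Hoxb5 was highest, Hoxb5os was at 5.59, 11.5, 2.03 and 0 CPM.

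In bulk RNA the members were compared per length of exon, as RPKM (reads per kilobase, in parts-per-million of the library's reads). Hox genes took 684 CPM in whole glomeruli and 624 CPM in dissociated cells. The 10 highest members in whole glomeruli were Hoxc6 (40.6), Hoxd8 (24.95), Hoxc8 (21.0), Hoxa10 (17.1), Hoxa9 (15.0), Hoxc4 (12.5), Hoxb6 (11.9), Hoxa7 (11.7), Hoxb4 (11.5) and Hoxd9 (11.01). In dissociated cells they stood at 53.7, 21.5, 41.5, 14.6, 11.6, 7.07, 3.11, 13.4, 1.10 and 8.08. Hoxc6 was the highest member per length in both libraries. By paralog group, reads came from groups 2 to 10 for the most part. Group 11 had 237 and 42 reads in whole and dissociated libraries, and groups 12 and 13 had none. Hoxd3 and Hoxd4 share exon bases on the same strand (62.3% and 52.3% of their lengths), so their counts are uncertain.

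**Figure D5:**
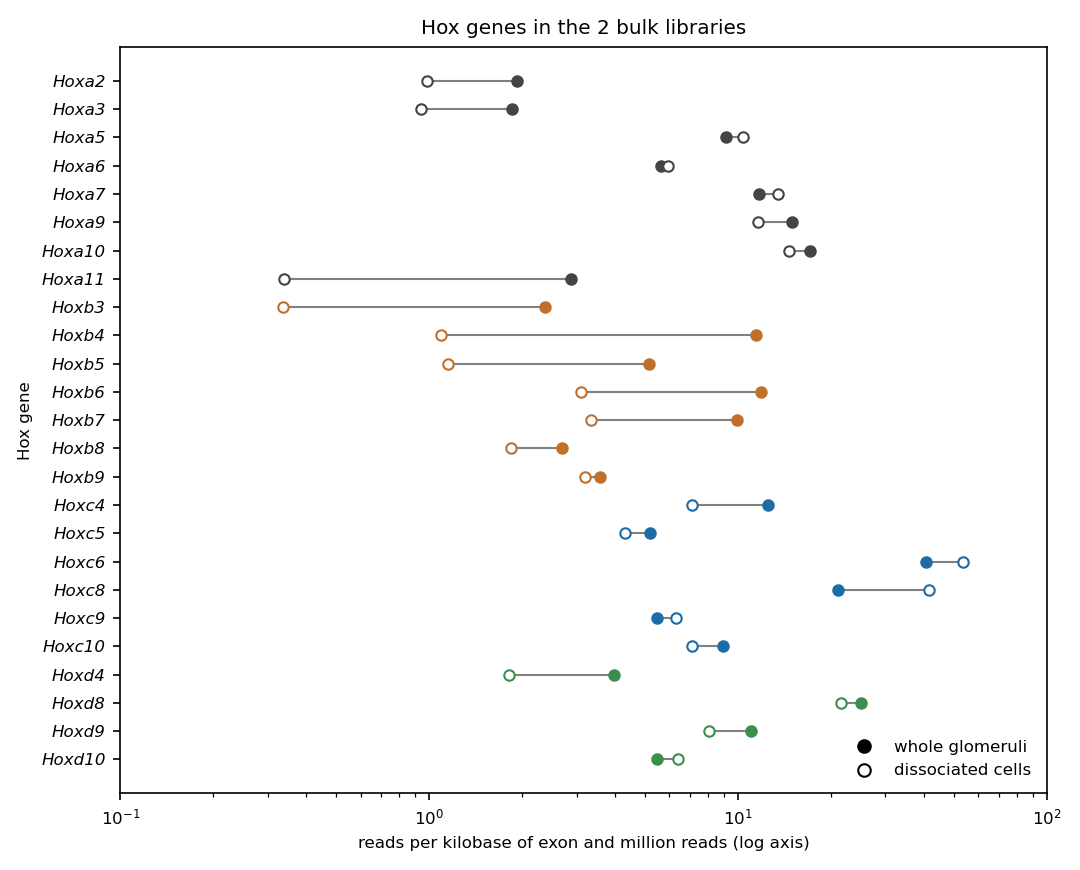
RPKM of the 25 Hox genes with a mean of at least 1 over both bulk libraries (log axis), in whole glomeruli (filled) and dissociated cells (open), 1 library each; colours mark the clusters as Hoxa grey, Hoxb orange, Hoxc blue and Hoxd green. Hoxb3, Hoxb4, Hoxb5, Hoxb6 and Hoxa11 lie farthest apart with less in dissociated cells, and Hoxc8 was higher there.

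From whole glomeruli to dissociated cells 5 of 8 Hoxb genes had a log2 ratio of -1 or less and Hoxc8 had one of 1 or more. With 1 library a group there is no replicate check and no test, and the intervals below cover counting error only. Of 27 members with at least 100 reads in both libraries together, 1 had a log2 ratio of dissociated to whole of 1 or more, and 6 of -1 or less, where 10.6% and 19.1% of 12692 genes did. The median log2 ratio was -0.06 over the members and -0.02 over all genes, and by cluster -1.44 for Hoxb (8 genes), 0.08 for Hoxa (9), 0.27 for Hoxc (6) and -0.03 for Hoxd (4). In such bulk values fewer cells of a type and less RNA per cell cannot be told apart, and fixation, sorting and RNA input differed together with dissociation.

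The 5 largest falls were Hoxb4 with 836 and 69 reads and a log2 ratio of -3.06 (95% interval -3.46 to -2.73), Hoxa11 with 187 and 19 at -2.68 (95% interval -3.55 to -2.10), Hoxb3 with 286 and 35 at -2.46 (95% interval -3.07 to -2.01), Hoxb5 with 409 and 79 at -1.84 (95% interval -2.22 to -1.51) and Hoxb6 with 664 and 150 at -1.62 (95% interval -1.90 to -1.37). Hoxb7 followed at -1.26 (95% interval -1.57 to -0.98) and Hoxb2 at -0.95 (95% interval -1.59 to -0.42). The rises included Hoxc8 with 1692 and 2888 reads at 1.28 (95% interval 1.20 to 1.37), Hoxc6 at 0.71 (95% interval 0.64 to 0.78), Hoxd10 at 0.53 (95% interval 0.29 to 0.77), Hoxa7 at 0.50 (95% interval 0.37 to 0.64), Hoxc9 at 0.50 (95% interval 0.29 to 0.71) and Hoxa5 at 0.48 (95% interval 0.29 to 0.66). With libraries scaled by total reads, which moved the median of all genes from -0.02 to -0.32, no member reached 1 and 8 reached -1.
Marker genes moved between the same libraries: all 7 mesangial markers had ratios of -1 or less (median -5.09), as did 8 of 10 endothelial markers (-1.72) and 6 of 6 proximal tubule markers (-6.51). Of 10 podocyte markers 7 had ratios of 1 or more (1.09), as did 5 of 6 immune markers past the filter (1.66), whereas distal convoluted tubule (-0.25) and connecting tubule and principal markers (0.04) moved less. The smooth muscle and renin markers had a median of -0.13, with 1 of 5 past the filter at -1 or less, and the thick ascending limb markers one of -0.22, with 2 of 5. The part of cell numbers in the Hox ratios was not tested. Among Hoxb genes, Hoxb8, which was highest in tubular-like cells, had a ratio of -0.24 (95% interval -0.58 to 0.09) and Hoxb9 one of 0.14 (95% interval -0.13 to 0.41). Among the related genes, Meis2 (-2.02), Meis1 (-2.25) and Cyp26b1 (-3.45) had ratios below 0, and Cbx8 one above 0 (2.76).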

How the data were processed

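Gene expression was measured by Drop-seq in 4 libraries and by bulk RNA-seq in 2. The deposited tables hold raw counts, UMI counts per gene and cell barcode for Drop-seq and read counts per gene for bulk, which the authors made with STAR and HTSeq, per the submitters' processing notes; tool roles and versions, the genome build and the use of strand are not given in the sources used here. In bulk, rows that name no gene were left out of library sizes; reads with no feature made up 9.68% and 6.14%, ambiguous reads 3.77% and 3.87%, and reads without a unique place 9.47% and 14.7%, in whole and dissociated libraries.

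Barcodes with under 300 genes (888) or over 20% mitochondrial UMIs (584) were removed. Cells were clustered with scanpy 1.11.5 (2000 variable genes, 30 components, resolution 1), leaving out 97 Hox, related and neighbouring genes; gene scaling was added after unscaled clusters held no parietal cells. The doublet caller marked 23 cells, which is too few to be used, and none was removed; 3064 cells (21.9%) carried markers of 2 types, and 3 kept barcodes occurred in more than 1 library. One podocyte-like cluster came mostly from library 4.

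Raw counts were summed per library and type. Genes with at least 20 UMIs were tested with edgeR 4.0.16 in R 4.3.3 (quasi-likelihood, TMM scaling, each type against the mean of the others, library as a block, Benjamini-Hochberg threshold 0.05), and sums of tubular-like subclusters likewise. Types of one library share its preparation, which is where the pairing comes from: deviations correlated by a median of 0.14 within and -0.05 between libraries. Bulk ratios used TMM scaling, a prior count of 2 and at least 100 reads, with exact 95% intervals; intervals and the limit of 3 counts cover counting error only. The test recovered 46% of genes changed 2-fold and 85% of those changed 4-fold in simulated tubular-like data of 15455 genes, with 12 false calls. The simulation gave all types the same pooled profile, with a fixed spread not estimated from the data and no library effect. Its figures therefore do not give the error rates of the real fits.

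The members and gene lists were chosen with earlier results of these data known. Values in every library are given for the 20 called members with the smallest adjusted p of 22 called and the 10 highest per length in bulk, and for bulk ratios the 5 largest rises and falls; other lists give up to 5 called genes. Some results that these rules would name are not reported here. Alternatives were other filters, DESeq2 1.42.0, RLE scaling, no block, each library left out, other cell filters, clusterings and references; leaving out the podocyte-led tubular subcluster and comparing 2 subclusters alone were added after seeing the data. Immune-like cells were too few for a test.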

Additional observations from a re-analysis of the deposited data

Results flagged for a closer look

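In 84 groups of 4 libraries with enough UMIs, 6 had a library that lay far from the other 3, and chance alone marks about 1 group in 20. Among parietal-like cells, Hoxc8 was at 321 CPM in library 3 against 403 to 415 in the others, Hoxc9 was at 129 CPM in library 1 against 61.0 to 71.7, and the sum of all Hox genes was 1536 CPM in library 3 against 1252 to 1292. Mural-like library 3 had low Hox sums, with 154.6 CPM of Hoxc genes against 341 to 378 and 526 CPM of all Hox genes against 1032 to 1085. The tubular-like Hoxc sum was 155 CPM in library 1 against 99.1 to 109 in the others.

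Hox transcripts were also present in barcodes that no comparison used. Immune-like cells held 466 CPM from 21 UMIs, above the 66.5 CPM that a count of 0 would allow, with podocyte markers at 0.623% of their UMIs. Podocyte-like cells held 23133 CPM of these markers and 1429.7 CPM of Hox genes. The part of podocyte transcripts in the immune-like level was not tested. Barcodes with under 300 genes held 924 CPM from 313 UMIs, of which Hoxc8 gave 77. The 584 barcodes over the mitochondrial limit held 1219 CPM from 1285 UMIs, of which Hoxd8 gave 466, and tubular markers made up 1.94% of their UMIs.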

How the results depend on the processing

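Each of the 20 named members was followed only in the type where its adjusted p was smallest. Of 316 alternative values for these calls, 314 kept direction and side of the threshold. Hoxb2 in tubular-like cells (10% mitochondrial limit) and Hoxa5 in endothelial-like cells (without cells with markers of 2 types) lost their calls, and none reversed. Calls of the same members in other types are not in this count. Several of those were lost, such as Hoxb3 and Hoxb4 in endothelial-like and Hoxc10 in mural-like cells. Of 293 alternative counts and shares, which cannot change sign, 70 moved. Of 40 alternative bulk ratios, which followed only 10 members with large rises or falls, 7 moved and none changed sign. Ratios nearer 0 did change sign when libraries were scaled by total reads. Hoxa10 went from 0.08 to -0.22, Hoxd8 from 0.09 to -0.21 and Hoxb9 from 0.14 to -0.16. The cause of these moves was not tested. Dropping the library block (no replicate block) gave the same counts of Hox calls as the blocked fit in every cell type, for example 10 higher and 7 lower in podocyte-like cells. No paired analysis was possible because each bulk group had 1 library.

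The share of all tested genes called was taken only for the main fits and the direct comparison of 2 subclusters. The alternative counts below therefore have no such share beside them and show only how the counts moved. In podocyte-like cells 12 members were called lower against all other named cells summed. In parietal-like cells 6 were called higher with edgeR's expression filter, 1 under the 10% mitochondrial limit and 1 against all other cells summed; 0 were called lower with DESeq2, under the 10% limit, at resolution 0.5 and without cells with markers of 2 types, where 3, 2, 3 and 1 had an unadjusted p under 0.05. In tubular-like cells 0 were called lower under the 10% limit, with 0 at an unadjusted p under 0.05, and 8 against all other cells summed. In endothelial-like cells 2 were called higher with at least 100 UMIs, 2 with edgeR's filter and 1 without cells with markers of 2 types. In mural-like cells 5 were called higher with no filter and 4 with DESeq2, and 1 each with at least 500 genes per cell, under the 10% limit, without cells with markers of 2 types and against all other cells summed. There 1 was called lower with no filter, with edgeR's filter, with RLE, with DESeq2, with 500 genes per cell, under the 10% limit and at resolution 0.5, 0 without cells with markers of 2 types (2 at an unadjusted p under 0.05) and 6 against all other cells summed.

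With 1 library left out, counts ranged from 0 to 2 (parietal-like, lower), 1 to 3 (mural-like, higher) and 1 to 1 (mural-like, lower). For the lists over 5 types they ranged from 6 to 8 for TALE genes lower, 2 to 4 for retinoic acid genes lower, and 2 to 4 higher and 0 to 1 lower for kidney genes tied to group 11, of which 3 were lower with DESeq2. In subclusters the ranges were 0 to 2 higher and 0 to 3 lower for the distal convoluted tubule, 0 to 1 higher for connecting tubule and principal cells and 2 to 5 lower for the one led by podocyte markers. Without library 2 Hoxc8 in the distal convoluted subcluster turned from -2.24 to 0.15, and without library 4 the 1 call there was not Hoxb8. DESeq2 gave 0 higher, 2 higher and 3 lower for these 3 subclusters. In the distal convoluted subcluster resolution 0.25 gave 2 higher and 1 lower, and the direct comparison with connecting and principal cells 0 and 1.

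Scaling bulk by total counts left 0 members with a log2 ratio of 1 or more. Shares of cells with a Hox UMI depended on depth: podocyte-like 72.4% unthinned and 73.1% at 1000 UMIs, parietal-like 68.7% and 66.1%, tubular-like 82.1% and 71.5%, endothelial-like 27.8% and 42.9%, mural-like 48.8% and 54.2%. Mural-like cells held 285 Hox UMIs and parietal-like cells 584, which limits what could be called there.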
